A study of Mus musculus with 2 samples.

Results

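Endothelial cells line the inside of blood vessels. They respond to vascular endothelial growth factor (VEGF) through the receptor KDR, form junctions with each other through cadherin 5 and claudin 5, and take on arterial, venous, sprouting tip or barrier identities as a vessel bed matures. In the embryonic eye they supply the choroidal vessels outside the retinal pigment epithelium (RPE), whose capillaries become fenestrated, the transient hyaloid vessels inside the eye cup and the vessels of the surrounding mesenchyme.

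The endothelial cells described here came from 2 single-cell RNA-seq libraries of mouse eye cups at e15.5. Control eyes were Myrf fl/fl, carrying loxP sites in both alleles of the transcription factor gene Myrf. Mutant eyes were Rx>cre Myrf fl/fl and carried, besides those alleles, a Cre recombinase that Rx sequence drives in the early eye field. Each library held 3 pooled eye cups from which cornea, lens and optic nerve had been removed. Rx is active in precursors of retina and RPE rather than of vessels, and the vessel bed from which each endothelial cell came is not recorded. With 1 library per genotype, a difference between genotypes cannot be told apart from a difference between the pools or library preparations, so no test was made, and all intervals are 95% intervals that cover counting error only.

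A cell was counted as endothelial when it passed limits on genes, UMIs and mitochondrial share, had a UMI (a tagged transcript, counted once) in 4 or more of 7 endothelial genes, and had UMIs in at most 1 of 5 genes of macrophages or pericytes. The 7 genes were Pecam1, Cdh5, Kdr, Cldn5, Emcn, Egfl7 and Esam, and the 5 were C1qa, C1qb, Csf1r, Rgs5 and Kcnj8. The rule found 233 cells of 20430 kept cells, 127 of 9722 in the control and 106 of 10708 in the mutant. The cells were thus chosen by the measured counts of these 12 genes, whose values are given as description. Control members held 2389311 UMIs and mutant members 1808877, with medians of 13943 and 15116 UMIs and 3788 and 4021 genes per cell.

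Most members lay far from the threshold. All 7 markers were found in 101 control and 82 mutant kept cells, 6 markers in 18 and 15, and 5 markers in 5 and 5. Just inside the rule, 4 control and 6 mutant members had exactly 4 markers. Just outside it, 57 control and 43 mutant cells had 3 markers and at most 1 of the 5 other genes. Among endothelial genes the rule did not use, the VEGF receptor gene Flt1 was detected in 1 and 5 of these cells, Eng in 14 and 12, Cd34 in 13 and 12, and Ramp2, a receptor partner of adrenomedullin signaling, in 25 and 20. In the members with exactly 4 markers, Flt1 was detected in 2 of 4 control and 0 of 6 mutant cells, the latter of low depth (median 2818.5 UMIs), and Eng in 2 and 3. Of the cells with 3 markers, 39 control and 26 mutant cells carried 4 or more of 7 mesenchyme markers, and 22 and 20 carried 3 or more of 7 neural retina markers.

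**Figure D1:**
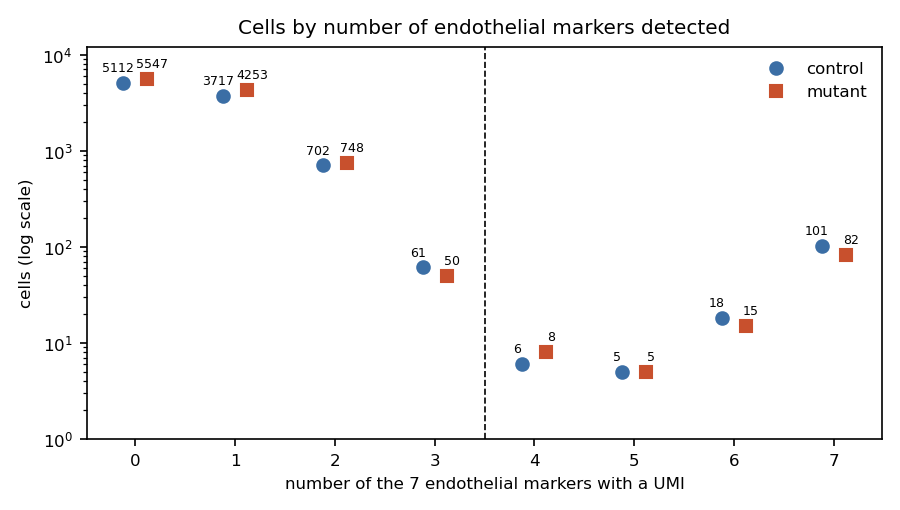
The horizontal axis gives the number of the 7 endothelial markers with a UMI and the vertical axis the number of kept cells on a log scale, with circles for the control and squares for the mutant library. The dashed line is the threshold of 4 markers. Counts fall to 5 cells in each library at 5 markers and rise to 101 and 82 cells at all 7.

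The label was checked against endothelial genes outside the rule. Flt1 was detected in 94.5% of members from the control and 84.0% from the mutant, Eng, a co-receptor of the TGF-β family, in 92.9% and 94.3%, and Cd34, a sialomucin of vessels and progenitor cells, in 96.9% and 91.5%. Tie1, an orphan receptor tyrosine kinase, was found in 89.0% and 89.6%. Levels are given as CPM, the UMIs of a gene per 1000000 UMIs of the pooled cells of a class. Plvap stood at 535 and 494 CPM in members and at 0.645 and 0.233 CPM in the neural retina gate. That gate, like those of pericytes, macrophages and mesenchyme, took only cells with at most 1 of the 7 endothelial markers, so low endothelial levels there follow in part from the gates.

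Some members also carried RNA typical of other cells. Neural retina markers (3 or more of 7) were present in 16 control and 20 mutant members, mesenchyme markers (4 or more of 7) in 9 and 11, and a hemoglobin share of 10% or more in 1 and 3. Any of these was found in 26 control members (20.5%) and 28 mutant members (26.4%), whose median depth of 26984 and 22756 UMIs exceeded that of the remaining members, 12100 and 13221. The highest doublet scores, 9.55% of control and 10.4% of mutant barcodes by construction, fell on 31 of 127 control and 21 of 106 mutant members, and 20 and 18 members had both. No doublet was removed. Values are therefore also given for the 101 control and 78 mutant members without such markers, called the marker-clean members. Of 12 immune genes, C1qa, C1qb, C1qc, Csf1r, Cx3cr1 and Ptprc had no UMI in any member, C1qa, C1qb and Csf1r being limited by the rule itself, and the list together had 45 UMIs in control and 40 in mutant members. Of the melanocyte and Schwann cell genes Sox10 and Pax3 none was found either. The 10 RPE genes together had 22 and 20 UMIs. Myrf, the targeted gene, had 2 UMIs in control and 0 in mutant members, so its deletion could not be read from these cells. Xist was found in 110 control members, whereas 50 mutant members and 0 control members had a UMI of a Y-linked gene, so sex differed between the pools. Values are given beside some results for the 110 control and 31 mutant members with Xist but without Y-linked UMIs, called the Xist-only members. Across all deposited barcodes 69 were shared by the libraries, and 0 were shared between 2 members, while 2 member barcodes also occurred in the other library.

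Promoter windows of 3 genes on which the results turn are shown, 250 bases before to 50 after the start, from RefSeq (GRCm38.p6). Genes and motifs were chosen after values were seen. Emcn is the marker with the lowest mutant-to-control ratio among the 7, Klf2 the named gene, among those lower in the mutant, whose interval stood farthest from equality, and Six3 an eye field gene found in the members. Capitals mark the core GGAAG bound by ETS factors or the CACCC core bound by Krüppel-like factors, on either strand.
Emcn, chr3:137340828-137341127, plus strand: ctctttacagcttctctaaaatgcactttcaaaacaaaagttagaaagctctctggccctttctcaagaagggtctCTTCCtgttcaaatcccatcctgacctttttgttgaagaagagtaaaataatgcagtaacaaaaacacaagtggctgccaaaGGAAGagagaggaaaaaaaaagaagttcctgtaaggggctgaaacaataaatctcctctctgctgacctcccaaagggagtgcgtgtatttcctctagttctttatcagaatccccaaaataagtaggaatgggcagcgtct
Klf2, chr8:72318812-72319111, plus strand: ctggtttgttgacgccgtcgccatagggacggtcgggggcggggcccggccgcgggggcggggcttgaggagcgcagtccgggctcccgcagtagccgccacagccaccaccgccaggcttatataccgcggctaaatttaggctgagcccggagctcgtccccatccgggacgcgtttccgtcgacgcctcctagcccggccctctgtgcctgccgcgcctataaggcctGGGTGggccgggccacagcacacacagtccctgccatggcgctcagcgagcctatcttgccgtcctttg
Six3, chr17:85620584-85620883, plus strand: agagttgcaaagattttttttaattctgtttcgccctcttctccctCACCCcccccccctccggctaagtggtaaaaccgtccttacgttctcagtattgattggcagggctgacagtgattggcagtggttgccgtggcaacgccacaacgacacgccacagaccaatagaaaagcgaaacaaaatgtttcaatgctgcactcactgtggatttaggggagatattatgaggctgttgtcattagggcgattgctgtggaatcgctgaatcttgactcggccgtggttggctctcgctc
The Emcn window held GGAAG at 2 positions and no CACCC, and the Klf2 and Six3 windows each held CACCC at 1 position and no GGAAG. Of 32851 windows of all genes, 71.4% held GGAAG and 57.5% held CACCC. Of the 25 genes with the largest fold over other cells, named further on, 13 matched 14 windows, of which 13 held GGAAG and 9 held CACCC. Of the 7 rule markers, 4 matched 6 windows, with GGAAG in 4 and CACCC in 3. The search covered 11 motifs on both strands. Among them the longer ETS form AGGAAG, which holds the core, was in 10 of the 14 windows and in 35.4% of all windows. The form CAGGAA was in 8 of the 14 and in 30.6% of all. The form ACAGGAAG, which holds both of these, was in 1 of the 14 and in 3.58% of all, and in 3 of the 6 windows of rule markers. The form CCGGAA was in 2 of the 14 and in 14.9% of all. Its extension CCGGAAGT, which holds the core too, was in 0 of the 14 and in 3.89% of all. For SOX factors the letters ATTGT were in 4 of the 14 and in 31.0% of all. The longer ACAATGG, whose reverse strand holds ATTGT, was in 0 of the 14 and in 3.66% of all. For forkhead factors TGTTT was in 8 of the 14 and in 50.5% of all. Its extension TGTTTAC was in 1 of the 14 and in 3.65% of all. A match is a run of letters and not a measured binding site.

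Endothelial cells made up 1.31% of kept control cells (1.09% to 1.55%) and 0.990% of kept mutant cells (0.811% to 1.20%), and the mutant share was 0.758 times the control share (0.580 to 0.988). The denominators differed in composition: the neural retina gate held 43.6% of control and 56.5% of mutant cells, and the mesenchyme gate 28.6% and 18.9%. Among cells outside the neural retina and erythroid gates the endothelial share was 2.58% and 2.56%, with a ratio of 0.991 (0.759 to 1.29). Per 100 pericytes, taken by Rgs5 and 2 or more of 6 further markers, control had 144 endothelial cells and mutant 143, a ratio of 0.993 (0.651 to 1.52). Per 100 mesenchyme cells the numbers were 4.57 and 5.25, a ratio of 1.15 (0.873 to 1.51). Per 100 macrophages there were 109 and 65.4, a ratio of 0.603 (0.418 to 0.869). Fewer endothelial cells per eye and more cells of other classes cannot be told apart from shares.

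The members were compared with all other kept cells, which belong to the same libraries, so these folds describe the gate and are not a test. Of 2804 genes with 100 or more UMIs in members of each library, 128 were over 10-fold and 49 over 50-fold higher in both. The 25 genes of largest fold included receptors and adhesion molecules (Aplnr, Robo4, Tie1, Flt1, Flt4, Cd93, Icam2, Ptprb, Adgrl4, Adgrf5), the SoxF transcription factors Sox7, Sox17 and Sox18, and Gimap4 and Gimap1, small GTPases also known from lymphocytes. Aplnr, the apelin receptor, stood at 412 CPM in control and 430.1 CPM in mutant members, 1549-fold and 1313-fold above other cells. Gpihbp1, which carries lipoprotein lipase to the capillary lumen, stood at 48.1 and 89.6 CPM, a log2 ratio of mutant over control of 0.90. Myct1, C130074G19Rik, Scarf1, Bcl6b, Fam167b, Ushbp1, Col15a1, Plvap and Vwf were also among the 25.

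**Figure D2:**
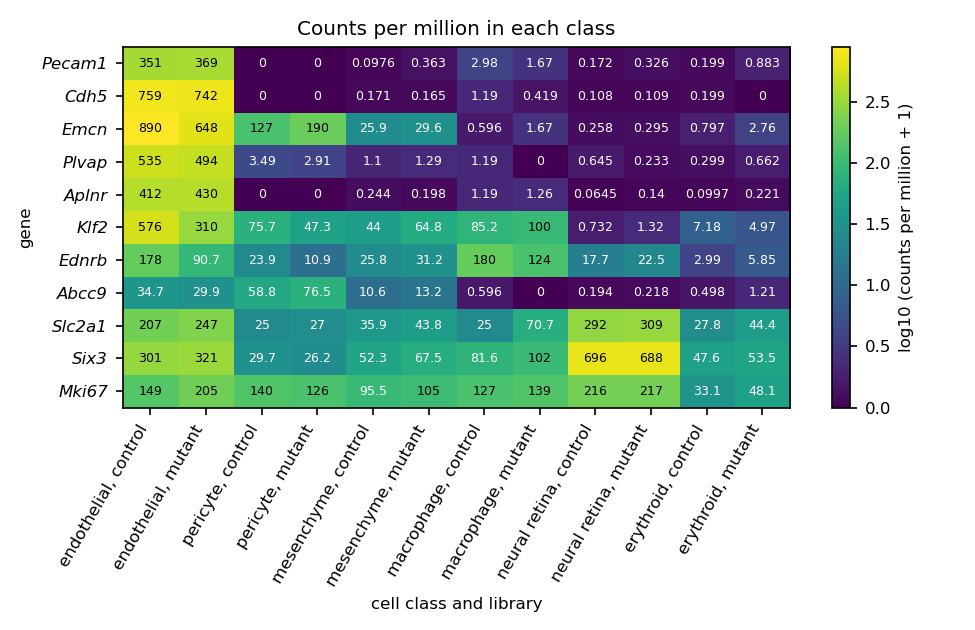
Rows are genes and columns are cell classes in each library. Color gives log10 of CPM plus 1, and the printed number is CPM. Pecam1, Cdh5, Plvap and Aplnr are high in endothelial cells of both libraries and at most 3.49 CPM in the other gates, all but the erythroid of which allowed at most 1 of the 7 markers, while Six3 is highest in the neural retina gate and second in endothelial cells.

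The 7 markers gave the following levels, as CPM in members. Cdh5, the cadherin of adherens junctions, was 759 in control and 742 in mutant members. Pecam1, a homotypic adhesion molecule, was 351 and 369, and Esam, a junction protein, was 339 and 352. These 3 were alike within 1.05-fold. Kdr was 510.2 and 468, Cldn5 761 and 714. Egfl7, a matrix-bound vessel protein, was 1200.4 and 1009, and Emcn, a sialomucin of venous and capillary endothelium, was 890.2 and 648, a ratio of 0.728 (0.677 to 0.782). Cell by cell, Emcn ran from 0 through a median of 803 to 5272 CPM in control members and from 0 through 634 to 2551 CPM in mutant members, so the ranges overlapped. Emcn was also present in the pericyte gate, at 127 and 190.1 CPM. In marker-clean members the log2 ratio of Emcn was -0.35, against -0.46 in all members.

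Across all genes, few were 2-fold or more apart between the 2 libraries in these cells. Of 7961 genes with 50 or more UMIs, 94 (1.18%) were 2-fold or more higher in the mutant and 29 (0.364%) 2-fold or more lower, 123 (1.55%) in all, around a median log2 ratio of -0.03. The counting interval of the ratio lay above equality for 572 of the 7961 genes and below it for 730. In marker-clean members 26 genes were 2-fold or more higher and 31 lower, of 6353 with 50 or more UMIs. Among Xist-only members the numbers were 50 and 142, of 6810. Of the 94 higher genes, 78 were expressed at a higher level in the neural retina gate of both libraries than in marker-clean members, which held for 49.6% of all genes tested. The same held for 69 of the 94 in the mesenchyme gate, against 3272 of all 7961 genes. For the erythroid gate it held for 59 of the 94, against 230 of the 7961. Marker-clean members were themselves taken without cells rich in markers of these gates. In 61 of the 94, the 5 richest cells held over 50% of the mutant UMIs. By control UMIs this held for 6 of the 29 lower genes and for 231 of all 7961 genes. Of the 47 higher genes that kept 20 or more UMIs in marker-clean members, 44 stayed on the same side of 0 and 28 stayed past 2-fold. Of the 29 lower genes, 24 kept 20 or more UMIs, all 24 on the same side, and 13 stayed past 2-fold. Marker-clean members are a part of the same cells, so agreement in side is in part fixed beforehand. Of all genes, 7820 kept 20 or more UMIs and 6103 of them stayed on the same side. The part of co-captured RNA in these counts was not tested.

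Endothelial gene lists are given by counts and medians, beside the 1.55% of all genes past 2-fold and the median of -0.03 over all genes. At that share a list of this size holds few or no genes past 2-fold, so a count of 0 is not particular to these lists. A gene of a list entered its median with 50 or more UMIs. No gene of the 15 pan-endothelial genes so measured and none of 19 endothelial transcription factors passed 2-fold, and the list medians were -0.03 and -0.02 on the log2 scale. The same held for 6 venous genes (median 0.06), 11 Notch pathway genes (0.22), 10 Wnt pathway genes (-0.08), 15 TGF-β and BMP pathway genes (-0.10) and 14 basement membrane genes (0.06). Of the receptors on these lists, Notch1 was 134 and 143 CPM, Tek, the angiopoietin receptor, was 128 and 124 CPM, and Acvrl1, a BMP receptor of endothelium, was 93.3 and 87.3 CPM. Col4a1, the main collagen IV chain of vessel basement membrane, was 1056 and 1086 CPM. Medians of further lists were 0.13 for VEGF ligands and receptors, 0.01 for angiopoietin, PDGF and apelin genes, 0.04 for junction genes, 0.00 for adhesion genes, 0.07 for hypoxia genes and -0.16 for p53 targets, with Gja5 the only gene of these past 2-fold.

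**Figure D3:**
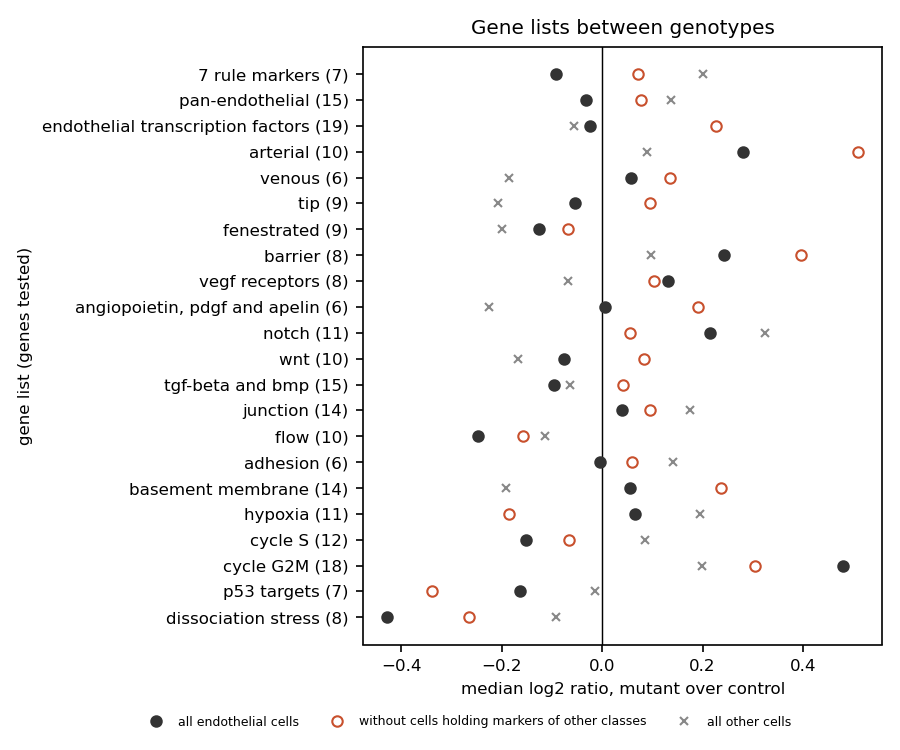
Rows are gene lists with the number of genes measured, and the horizontal axis is the median log2 ratio of mutant over control. Filled circles are all endothelial cells, open circles marker-clean members and crosses all other cells. The lists drawn are those of endothelial identity, signaling, cell cycle and stress, and not those of other cell types. Among the lists drawn, the medians of all members run from -0.43 for dissociation stress to 0.48 for G2M.

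Klf2, a transcription factor induced by blood flow, was the gene whose interval stood farthest below equality among the named genes, which needed 100 or more UMIs not concentrated in 5 cells. The control members held 1377 UMIs of it and the mutant members 560, or 576 and 309.6 CPM, a ratio of 0.537 (0.486 to 0.593). Per cell it ran from 0 through a median of 267 to 3034 CPM in control members and from 0 through 46.6 to 2246 CPM in mutant members, with 42 control and 47 mutant cells at 0. It was detected in 66.9% of control and 55.7% of mutant members, or 42.5% and 26.4% once each cell was thinned to 2000 UMIs. In the neural retina gate, where depths were lower (medians 9834 and 9390 UMIs), the unthinned share was 0.802% and 1.02%. Other gates held more, with 24.4% and 30.9% in mesenchyme, 39.8% and 32.4% in pericytes and 41.9% and 40.7% in macrophages. The log2 ratio was -0.90 in all members, -0.72 in marker-clean members and -0.93 in Xist-only members, and 0.07 in all other cells. In the pericyte gate Klf2 was 75.7 and 47.3 CPM, a log2 ratio of -0.68. The log2 ratio lay above 0 in the mesenchyme (0.56), macrophage (0.23) and neural retina gates (0.85, from 0.732 and 1.32 CPM).

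No flow gene passed 2-fold. Of 10 measured, Klf2 among them, 8 lay below 0, against 55.0% of all genes measured, with a median of -0.25 in all members and -0.16 in marker-clean members. The 9 without Klf2 had a median of -0.18. Klf4, a second factor of the same family, was 54.4 and 40.9 CPM, Thbd, the anticoagulant thrombomodulin, 43.9 and 27.1 CPM, and Nos3, the endothelial nitric oxide synthase, 61.9 and 49.8 CPM. Cav1 and Cavin1, components of caveolae, were 312 and 338 CPM and 145 and 165 CPM. Of the genes induced by dissociation none passed 2-fold, and all 8 measured lay below 0, with a median of -0.43 in members, -0.26 in marker-clean members and -0.09 in all other cells. Jun was 139 and 102 CPM and Dusp1 54.0 and 38.7 CPM. Their part in the Klf2 result was not tested.

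Other named genes were lower in the mutant by the same rule. Ednrb, the endothelin B receptor, was 178 CPM in control and 90.7 CPM in mutant members, 0.509 times the control (0.422 to 0.610), with a log2 ratio of -0.98 that was -0.22 after thinning each cell. In the pericyte gate it was 23.9 and 10.9 CPM, a log2 ratio of -1.13, and in macrophages its log2 ratio was -0.53. Clec1b, a C-type lectin best known from platelets, was 67.8 and 33.2 CPM, 0.489 times the control (0.358 to 0.662), in 43.3% and 26.4% of members, with a log2 ratio of -1.03 that was -0.71 in Xist-only members. Tcf15, a basic helix-loop-helix transcription factor, was 567 and 379 CPM. Aprt, an enzyme of purine salvage, and Erh had ratios of 0.643 and 0.666. Ccdc85b, Tbc1d15, Gstp1 and Pnpla8 completed the list, with log2 ratios from -1.12 to -0.81, and those of Ccdc85b and Gstp1 were -0.71 and -0.82 in all other cells, while Erh stood at -0.35 there. Tbc1d15, at -1.12 in all members, was -0.06 after thinning. Esm1, secreted by sprouting endothelium, had 40 UMIs among control members and 13 among mutant members, a log2 ratio of -1.22 that was -0.95 in marker-clean members and -0.32 after thinning.

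**Figure D4:**
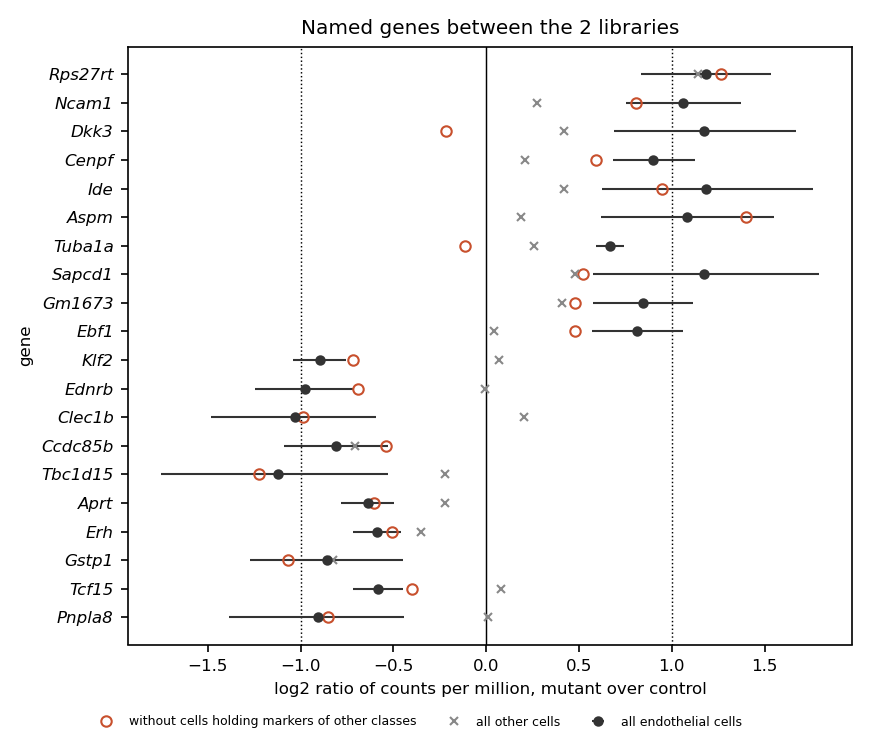
Rows are the 10 named genes higher and 10 lower in the mutant, and the horizontal axis is the log2 ratio of CPM, with filled circles and 95% counting intervals for all endothelial cells. Open circles are marker-clean members and crosses all other cells, and dotted lines mark 2-fold. Klf2, Ednrb and Clec1b are lower in endothelial cells and near or above 0 in the sum of all other cells, and Dkk3 and Tuba1a lie below 0 in marker-clean members.

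Of the 10 named genes higher in the mutant, several are abundant in the neural retina gate or were higher in all other cells too. Ncam1, a neural adhesion molecule, was 60.7 and 127 CPM in members and stood at 634 CPM in the mutant neural retina gate. Its log2 ratio of 1.06 was 0.19 in Xist-only members and 0.50 without members of high doublet score. Tuba1a, a tubulin abundant in neurons, was 1102 and 1748 CPM, and its log2 ratio of 0.67 became -0.11 in marker-clean members. For Dkk3 the log2 ratio of 1.17 became -0.22, with 5 and 3 UMIs left. Rps27rt was 2.27-fold higher in members, and its log2 ratio in all other cells was 1.14. Ebf1, a transcription factor known from B cells and mesenchymal cells, was 101 and 178 CPM, and its log2 ratio of 0.81 was 0.48 in marker-clean members, 0.08 in Xist-only members and 0.04 in all other cells. Gm47283, annotated on chromosome Y and for that left out of the named genes, had 143 UMIs in control members, where the 4 Y-linked genes searched had 0, and 246 in mutant members. Its log2 ratio was 1.18 in members and 0.98 in all other cells, and it is among the 94 higher genes. Ide, Sapcd1 and Gm1673 were the remaining genes outside the cell cycle, and Ide fell short of 2-fold in marker-clean and Xist-only members (both 0.95). Of 15 neural retina genes measured 8 were 2-fold or more higher, against 1.18% of all genes, with a median of 1.01 that was 0.35 in marker-clean members and -0.14 in Xist-only members. All 7 erythroid genes measured were 2-fold or more higher, and the median of 2.02 became -0.11 in marker-clean members, 5.51 in Xist-only members, 6.44 without members of high doublet score and 0.03 without the 5 cells richest in each gene. Marker-clean members were taken without cells rich in hemoglobin or in neural retina markers, so these lower medians follow in part from that choice. The 9 mesenchyme genes had a median of -0.21 in all and 1.28 in marker-clean members, so its sign depended on which cells were taken.

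Of 18 cell cycle genes of G2 and mitosis none passed 2-fold, and 17 lay above 0, against 45.0% of all genes measured, with Bub1 at -0.34. The list had a median of 0.48 in all members, 0.30 in marker-clean members and 0.20 in all other cells. Cenpf, a kinetochore protein, was 121 and 227 CPM, a ratio of 1.87 (1.60 to 2.18), and Mki67, a proliferation marker, was 149 and 205 CPM. Aspm, a spindle protein among the named genes, was 27.2 and 57.5 CPM, and its log2 ratio of 1.08 was 0.60 in Xist-only members and 2.72 after thinning. The 12 S phase genes had a median of -0.15, while 3 or more of them were found in 69.3% of control and 79.2% of mutant members, and in 22.0% and 26.4% after thinning. After thinning, 3 or more G2M genes were found in 40 of 127 control members (31.5%, 23.5% to 40.3%) and 41 of 106 mutant members (38.7%, 29.4% to 48.6%), so the intervals overlapped. Unthinned, the shares were 59.1% and 61.3%. The G2M median was 0.14 in Xist-only members and 0.95 without members of high doublet score.

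Arterial genes varied between members. Of 10 tested, 1 was 2-fold or more higher in the mutant (Gja5, connexin 40) and 8 lay above 0, against 1.18% and 45.0% of all genes measured, with a median of 0.28 in all and 0.51 in marker-clean members. Gja5 had 15 and 36 UMIs, in 3.94% and 5.66% of members, and Gja4, connexin 37, was 45.6 and 71.9 CPM. Without the 5 cells richest in each gene the list median was 0.04, and in Xist-only members it was -0.21, with Gja5 at -0.51. Cells with 3 or more of the 12 arterial genes were mainly deeper cells, 59.1% and 53.8% of members but 10.2% and 6.60% after thinning, and the same held for the venous (82.7% and 76.4%, thinned 15.7% and 13.2%), tip (85.8% and 86.8%, thinned 21.3% and 12.3%) and barrier lists (80.3% and 80.2%, thinned 21.3% and 25.5%).

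A stricter arterial subset was chosen after the values were seen, as marker-clean members with 2 or more of Gja4, Gja5, Hey1, Bmx and Sema3g. It held 13 of 101 control (12.9%, 7.04% to 21.0%) and 14 of 78 mutant cells (17.9%, 10.2% to 28.3%), at median depths of 12725 and 12291.5 UMIs against 11957.5 and 13221 in the rest. Of these, 9 control and 4 mutant cells had exactly 2 of the 5 genes, and after thinning 2 control cells (1.98%) and 4 mutant cells (5.13%) met the rule. The cells were picked by expression, so the folds over the rest are descriptions. Of the 7 arterial list genes outside those 5, 6 had 20 or more UMIs in each library. All 6 were above the rest in both libraries, as were 29.2% of all genes so measured, and 3 of them (Efnb2, Unc5b and Dll4) had intervals above 1 in both, as had 1.98% of all genes. The interval of Sox17 spanned 1 in the control, that of Jag1 in the mutant and that of Vegfc in the control. Efnb2, the ligand that marks arteries, was 3.35-fold and 4.02-fold higher than in the rest, Unc5b, a netrin receptor, 3.24-fold and 8.39-fold, Dll4, a Notch ligand, 3.81-fold and 2.94-fold. Mecom, a zinc finger factor outside the list, was 3.00-fold and 3.64-fold higher. Sat1, a polyamine-catabolic enzyme, was 7.60-fold and 7.93-fold higher. Cxcr4, a chemokine receptor, had 13 UMIs against 5 in the rest in the control, a ratio of 15.9 (5.30 to 56.8), and 14 against 3 in the mutant, a ratio of 21.1 (5.88 to 114). The venous factor Nr2f2 had 5 UMIs against 173, a ratio of 0.176 (0.0565 to 0.419), and 1 UMI against 146, a ratio of 0.0309 (0.000778 to 0.175). Aplnr was 0.611 and 0.447 times the rest. Klf2 was 563 CPM in the control subset (129 UMIs) and 569 CPM in the mutant subset (117 UMIs), against 589 and 309 CPM in the rest.

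**Figure D5:**
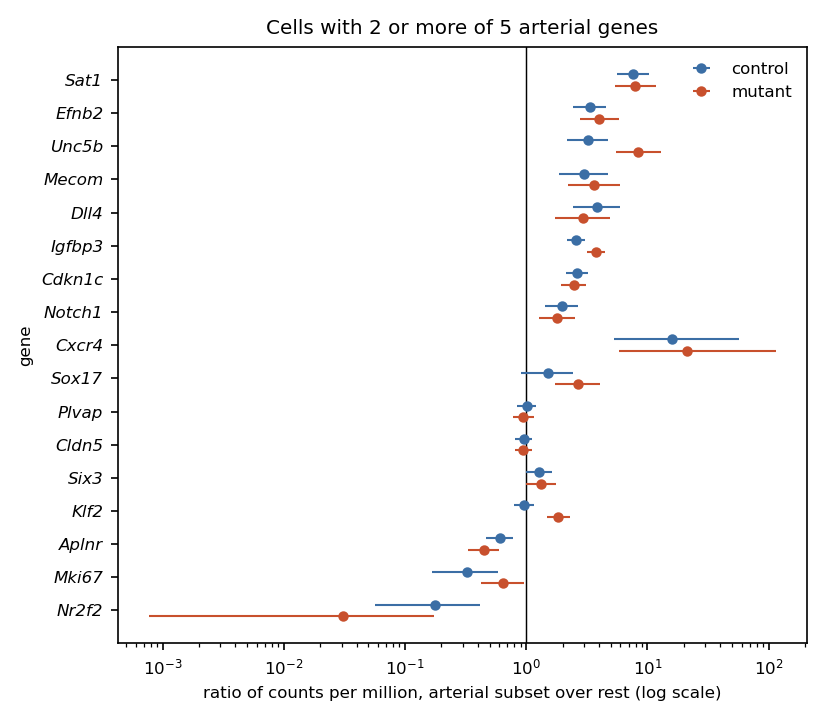
Rows are genes and the horizontal axis is the ratio of CPM in the arterial subset over the other marker-clean members, on a log scale, with 95% counting intervals. Sat1, Efnb2, Unc5b, Dll4 and Cxcr4 are above 1 in both libraries, and Nr2f2, Aplnr and Mki67 are below 1.

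Further subsets were also chosen after the values were seen. Marker-clean members with an Apln UMI numbered 29 of 101 and 22 of 78 and were deeper than the rest (14328 and 18271.5 UMIs against 9888.5 and 10986). Of the 18 G2M genes, 14 were above the rest in both libraries, as were 26.8% of all genes with 20 or more UMIs in each, and 6 had intervals above 1 in both, as had 1.17% of all genes. Their median ratio was 2.08 in the control and 1.25 in the mutant, and Mki67 was 2.44 (1.86 to 3.21) and 1.31 (0.999 to 1.72) times the rest. In them Fabp4, a fatty acid carrier, was 6.51-fold and 5.33-fold higher than in the rest, Odc1, an enzyme of polyamine synthesis, 2.09-fold and 2.39-fold, and Six3 was 0.442 and 0.435 times the rest. Cells with a Vwf UMI numbered 51 and 40 and were deeper (17316 and 15826.5 UMIs against 9688 and 9492.5). The matrix gene Eln had 26 UMIs in these control cells and 6 in the rest, a ratio of 2.72 (1.09 to 8.07), and 32 and 4 UMIs in mutant cells, a ratio of 4.66 (1.65 to 18.1). Fbln2, another matrix gene, had ratios of 2.63 (0.966 to 8.94) and 3.49 (1.46 to 10.1), so its control interval spans 1.

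Genes of fenestrated and of barrier endothelium were both detected. Plvap, which forms the diaphragms of fenestrae, was 535 and 494 CPM and had a UMI in 95.3% and 90.6% of members. Slc2a1, the glucose transporter of barrier endothelium, was 207 and 247 CPM, in 74.8% and 76.4% of members. Both were detected together in 73 of the 101 marker-clean control members and 58 of the 78 from the mutant, and after thinning in 26 and 20. The product of the separate shares gives 71.3 and 58.5 cells, and 25.2 and 20.9 after thinning. Slc2a1 was also found in 72.1% and 74.6% of the neural retina gate. The mature barrier genes Mfsd2a and Slco1c1 had 0 UMIs among control members and 5 and 2 among mutant members, while the Wnt-induced Apcdd1 and the choriocapillaris gene Car4 had 0 in both. The counting limit of 3 UMIs is 1.26 and 1.66 CPM for control and mutant members. Fenestrated genes had a median of -0.13 over 9 genes and barrier genes 0.24 over 8. The median of 9 tip genes was -0.05. The 7 lymphatic genes together had 308 and 227 UMIs, of which Flt4, also found in other endothelium, had 146 and 132 and Mmrn1 129 and 76. Prox1, the lymphatic transcription factor, had 14 and 10, and Lyve1 had 2 and 0.

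Six3, a homeobox gene of the eye field, was found in most members. Its level was 300.5 CPM in control and 321 CPM in mutant members, with a UMI in 74.0% and 68.9% of members, while 14.2% and 18.6% of cells in the erythroid gate had one at median depths of 17653 and 17283.5. After thinning, members with a UMI were 33.9% and 36.8%. In marker-clean members it was 287 and 264 CPM, with 467 and 299 UMIs, while its paralog Six6 had 13 and 3, Pax6 8 and 3, and Rax 9 and 8. Pax6 and Rax, unlike Six3 and Six6, were among the 7 neural retina markers by which these members were taken, so their low counts follow in part from that choice. All members held 718 and 580 UMIs of Six3 and 116 and 121 of Six6. The choice of members thus lowered Six6 too, and more than Six3. Six3 made up 86.1% and 82.7% of the summed Six3 and Six6 UMIs in all members. It made up 97.3% (95.4% to 98.6%) and 99.0% (97.1% to 99.8%) in marker-clean members, against 59.5% and 61.4% in the neural retina gate. Across the erythroid, mesenchyme and macrophage gates this share ran from 53.6% to 64.0%, and in the pericyte gate, on few UMIs, it was 51.0% and 73.5%. Other genes better known from neighboring cells were Abcc9, a potassium channel subunit of pericytes, with a UMI in 34.6% and 29.2% of members, against 0.212% and 0.231% of the neural retina gate. Foxc1, a factor of periocular mesenchyme and among the 7 mesenchyme markers, was found in 57.5% and 55.7% of members and 0.802% and 0.777% of the neural retina gate. Kit, a receptor of melanocytes and blood precursors, was found in 32.3% and 32.1% of members and 10.5% and 10.4% of that gate.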

How the data were processed

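Per cell, the deposited matrices of the 10x Genomics 3′ assay hold UMI counts of 31053 genes that the authors had not normalized, in 2 libraries. Per the labels the reads were aligned to mm10 with Cell Ranger 7.1.0, whereas the matrix headers give software 3.1.0. The study states a doublet limit of 2000 counts, which was not applied because every member exceeds it.

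Cells with 200 or more genes, 2000 or more UMIs and at most 15% mitochondrial UMIs were kept. UMIs were summed over the members of a library and divided by their total, as CPM (per 1000000). Ratios carry exact conditional binomial intervals, shares exact Clopper-Pearson intervals and ratios of cell numbers exact odds ratio intervals. No interval covers differences between embryos. A gene with 0 UMIs was set to 3, and no ratio was formed with 3 or fewer in both. The calculation was tested on simulated data.

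Genes between genotypes were named, among those with 100 or more UMIs, as the 10 per direction whose interval lay farthest from 1, without mitochondrial and hemoglobin genes, Xist, genes annotated on chromosome Y and genes with over 50% of UMIs in 5 cells of the library where they were higher. The 25 genes of largest fold over other cells needed 100 UMIs in each library. In lists, the genes named came from the 5 with most UMIs and those past 2-fold with 50 or more UMIs; others, the stricter subsets and the marker-clean members were chosen after values were seen. The members and gene lists were chosen with earlier results of these data known. Scrublet (scanpy 1.11.5) scored doublets. Its automatic threshold called 366 control and 0 mutant barcodes, so the highest scores at 0.8% per 1000 barcodes were used, as an alternative only. Analyses ran in Python 3.11.15.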

Additional observations from a re-analysis of the deposited data

Results flagged for a closer look

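Transcripts of 4 Y-linked genes (Ddx3y, Uty, Kdm5d and Eif2s3y) were left out of the named genes. Eif2s3y, with 0 UMIs in control and 51 in mutant members, is counted among the 94 genes 2-fold or more higher. They were detected in 47.2% of mutant endothelial cells, 50 of 106, and in 0 of 127 control cells, for which the exact interval reaches 2.86%. Of the mutant cells, 31 had Xist without a Y-linked UMI and 9 had both. Sex and genotype cannot be told apart in the full comparison.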

How the results depend on the processing

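The mutant-to-control ratio of endothelial shares, 0.758 of all kept cells, was 0.991 of cells outside the neural retina and erythroid gates. The 94 genes 2-fold or more higher became 50 in Xist-only members, 26 in marker-clean members (chosen after seeing the data), 8 with cells thinned to 2000 UMIs, 245 with a minimum of 20 UMIs and 21 with 200. The 29 lower genes became 98 with 3 or more endothelial markers, 142 in Xist-only members, 10 after thinning, 147 with a minimum of 20 UMIs and 1 with 200. The minimum, thinning and the choice of members all change how many genes are tested, and the cause of these shifts was not tested. Among values past 2-fold in all members, signs reversed for the neural retina list (-0.14), Sapcd1 (-0.85) and Gja5 (-0.51) in Xist-only members, and for the erythroid list (-0.11, in part fixed by leaving out hemoglobin-rich cells) and Dkk3 (-0.22) in marker-clean members. Among values under 2-fold, 50 of 276 list medians and 21 of 264 gene ratios under the alternatives changed sign, such as the arterial list (-0.21) and Tuba1a (-0.11) in Xist-only members and the mesenchyme (1.28), hypoxia (-0.18) and endothelial transcription factor lists (0.23) in marker-clean members. In all, 26 of 300 list medians and 90 of 383 gene ratios moved beyond their spread without such a reversal. That spread was the counting interval of the gene, and for a list the interval of the single gene nearest its median. No paired analysis was possible because each genotype has 1 library. Depth limits sparse genes, since 3 UMIs are 1.26 CPM in control and 1.66 CPM in mutant members.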
